A study of Mus musculus with 6 samples.

Results

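EphA receptors and ephrin-A ligands were followed in young neurons of the embryonic mouse cortex. The members were the 10 genes with the symbols Epha3, Epha4, Epha5, Epha6 and Epha7 (5 receptors) and Efna1, Efna2, Efna3, Efna4 and Efna5 (5 ligands), and all 10 were found among 20367 genes. The embryos, on the C57BL/6J strain, came from heterozygous reporter parents for Tbr2 and homozygous ones for DCX and carried both Tbr2-GFP, which labels cells that use the intermediate progenitor factor Tbr2 (Eomes), and DCX-mRFP, which labels young neurons through doublecortin, a protein that binds microtubules. Cells with both colors were sorted as neurons derived from intermediate progenitors (IPN), and cells with red color as non-IPN, so every library came from double-reporter embryos and from DCX-positive gates. Each population gave 1 library on each of 3 embryonic days (E13.5, E15.5, E16.5, the age order used throughout), taken from 1000000 cells at E15.5, with no amplification named, and from 10000 cells with amplified transcriptome at E13.5 and E16.5. Amplification, as named, and cell number changed together with age, so E15.5 levels are given beside the other ages and not tested against them. The labels name no separate animals, and p-values measure only the spread between these libraries.

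EphA receptors are tyrosine kinases of the cell surface, and ephrin-A ligands are held on the membrane of neighboring cells by a lipid anchor. Contact between cells starts forward signalling in the receptor cell, often with loss of adhesion, and reverse signalling in the ligand cell. In the developing cortex the family is known for axon guidance, area mapping and the sorting of migrating neurons.

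The promoters of the 3 genes on which the results below turn are shown as reference sequence, for their base composition. Each is the 250 bases before the annotated start, 5′ to 3′ on the gene's strand, from RefSeq (build GRCm38.p6, all 10 members matched), with CG dinucleotides in capitals. Epha3 lies at chr16:63864176-63864425 (minus strand), Epha7, the gene called between ages, at chr4:28812881-28813130 (plus strand, the first of 2 listed starts), and Efna5, whose population ratio varied most, at chr17:62881318-62881567 (minus strand).
Epha3: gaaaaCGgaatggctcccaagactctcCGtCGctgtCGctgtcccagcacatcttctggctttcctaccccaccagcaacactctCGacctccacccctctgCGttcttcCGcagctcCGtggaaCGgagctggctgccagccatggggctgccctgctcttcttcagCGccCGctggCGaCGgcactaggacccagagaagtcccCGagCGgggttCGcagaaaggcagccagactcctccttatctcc
Epha7: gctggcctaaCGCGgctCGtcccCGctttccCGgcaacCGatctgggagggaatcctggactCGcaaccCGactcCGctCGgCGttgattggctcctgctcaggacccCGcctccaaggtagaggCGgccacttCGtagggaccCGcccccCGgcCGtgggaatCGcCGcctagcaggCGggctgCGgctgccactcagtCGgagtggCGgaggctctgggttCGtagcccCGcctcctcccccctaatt
Efna5: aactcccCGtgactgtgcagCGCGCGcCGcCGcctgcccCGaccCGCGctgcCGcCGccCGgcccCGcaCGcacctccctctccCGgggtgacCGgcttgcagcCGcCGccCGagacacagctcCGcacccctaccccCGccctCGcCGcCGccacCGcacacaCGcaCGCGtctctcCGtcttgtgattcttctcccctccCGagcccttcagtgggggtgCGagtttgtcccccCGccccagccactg

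The windows held 16 CG in Epha3, 25 in Epha7 and 32 in Efna5. Among 32851 promoters of the same length, the median was 6 and the upper quartile was 16, the count of Epha3. Over the 10 members the lowest was 7, in Efna4. Both strands were searched for 3 motifs, none of which contains another. The neuronal E-box CAGATG was in none of the 3 windows shown and in 14.4% of all promoters. The T-box sequence AGGTGTGA was in none of them and in 1.12% of all promoters. The homeodomain core TAATTA was in none of them and in 4.84% of all promoters. Among the other members' windows, the E-box was found in Epha6 and Efna3 and TAATTA in Epha5 and Efna1.

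The unit CPM here is a deposited value divided by the total of its library and multiplied by 1000000. Column totals ran from 12583677 to 32538995, and 1 CPM stood for a deposited value of 12.58 to 32.54. The deposited values were scaled, and the true depth is unknown. Of the sort reporters, Eomes had a fitted log2 difference of 0.79 ± 0.22 (SE) between IPN and non-IPN (limma, adjusted p = 0.101, not called), and Dcx one of -0.01 ± 0.26 (adjusted p = 1). The summed level of 9 projection neuron markers was 3318.3 to 5094.9 CPM in IPN and 418.2 to 2524.8 in non-IPN. That of 9 GABAergic markers was 26.6 to 69.6 and 1432.9 to 4928.5, with Dlx5 and Dlx6 listed at 0 in IPN at E13.5 and Slc32a1 and Dlx6 at E16.5. The 10 microglia and macrophage markers, which are not neuronal, summed to 1.8 to 6.1 CPM in IPN and 468.8 to 928.1 in non-IPN, and C1qa was listed at 0 in IPN at E13.5 and E16.5. Radial glia markers (9 genes) summed to 4318.1 CPM in non-IPN at E13.5 and to 377.2 to 1247.2 in the other 5 libraries. Red blood cell markers (9 genes, some near-identical and open to shared reads) summed to 49254.3 CPM in that same library and to 6.1 to 276.5 in the others. The part of these cells in the results below was not tested. In bulk libraries, fewer cells of a type and less RNA per cell cannot be told apart.

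**Figure D1:**
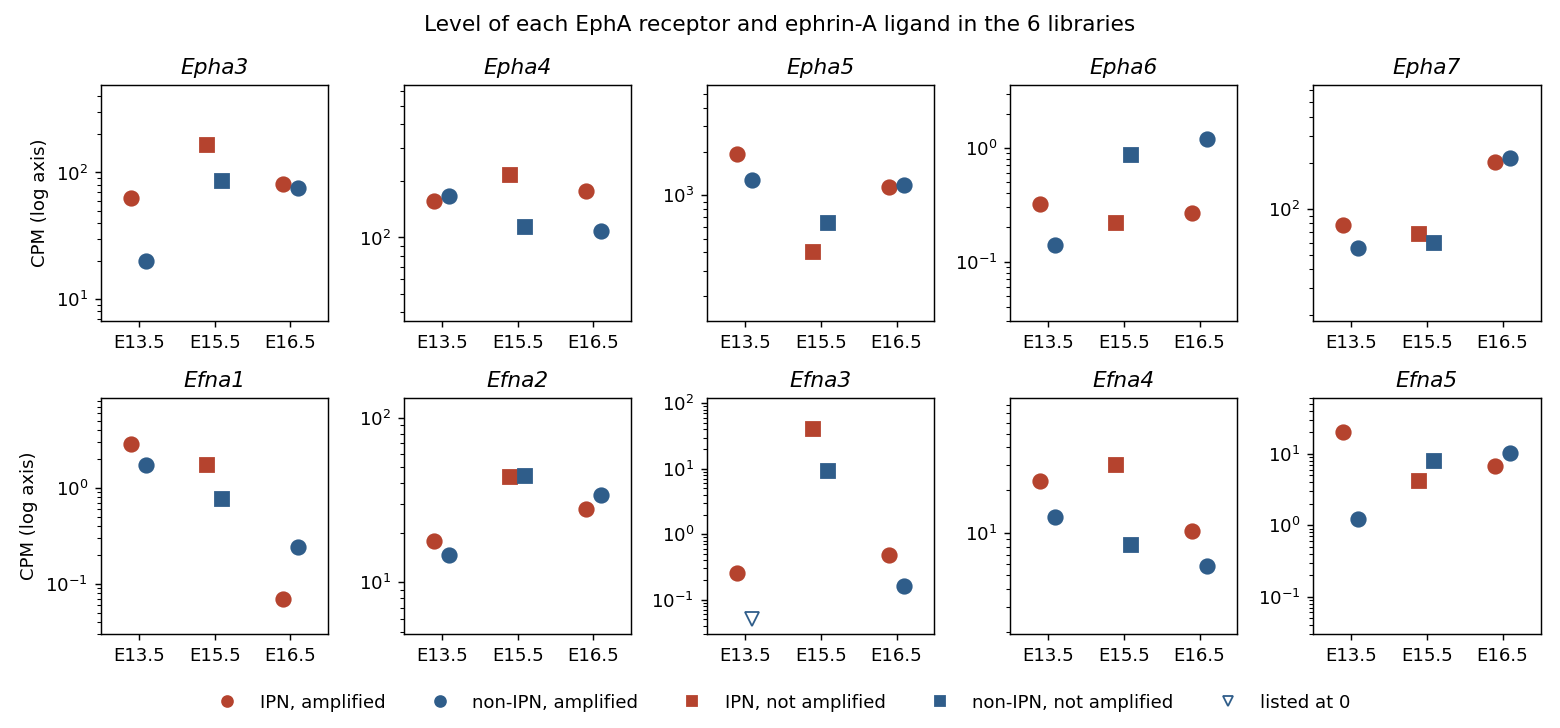
CPM (log axis) of each receptor (top row) and ligand (bottom row) by embryonic day, 1 point per library. Circles are amplified libraries. Squares, marked as not amplified, are the E15.5 libraries, for which no amplification is named. IPN and non-IPN overlap for all 10 genes, Epha7 is highest in both E16.5 libraries, and Efna3 is above 1 CPM only at E15.5.

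Among the receptors, Epha3, a receptor of ephrin-A5 and ephrin-A2, measured 62.82, 163.86 and 81.53 CPM in IPN and 20.09, 85.86 and 75.42 CPM in non-IPN, in age order. IPN had the higher level at each age, and the lowest of the 6 levels was that of non-IPN at E13.5. The log2 ratio of deposited values, IPN over non-IPN, was 1.79, 0.99 and 0.33 in age order. Over the 3 ages the fitted difference was 1.03 ± 0.29, short of the threshold (limma, adjusted p = 0.103; unadjusted p = 0.00518), and it was 0.66 without the E13.5 pair.

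Epha4, which binds ephrin-A and ephrin-B ligands and is known from corticospinal guidance, had IPN levels of 157.31, 216.20 and 176.25 CPM by age, against 166.16, 114.14 and 107.68 CPM for non-IPN. The populations were close at E13.5 and IPN was above non-IPN at the later ages. At E13.5 the sign depended on the scale, since the log2 ratio of deposited values was 0.07. At E15.5 and E16.5 the log2 ratio was 0.97 and 0.93. The fitted difference over the 3 ages was 0.66 ± 0.24 (limma, adjusted p = 0.242). It was 0.95 ± 0.18 and passed without the E13.5 pair (adjusted p = 0.0414), against 0.5 without the E15.5 pair (adjusted p = 0.751) and 0.52 without the E16.5 pair (adjusted p = 0.662).

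Epha5, known from axon targeting and synapse formation, had the highest receptor levels. It read 1931.11 (IPN) against 1276.69 CPM (non-IPN) on the first day, 401.83 against 636.27 on the second and 1139.32 against 1165.56 on the last. The higher population changed between ages. The log2 ratio of deposited values was 0.74, -0.61 and 0.18, so at E16.5 its sign differed from that of CPM. The fitted difference was 0.11 ± 0.25 (limma, adjusted p = 0.884), and it was -0.03 when values were scaled by column totals. Per kilobase of exon, Epha5 was the highest of the 10 genes in each of the 6 libraries, at 39.76 to 191.09 CPM per kb.

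Epha7, a receptor known from thalamocortical and area mapping, measured 77.82, 67.98 and 202.72 CPM in IPN and 55.05, 59.43 and 215.52 CPM in non-IPN, in age order. Both E16.5 libraries stood above the other 4, and within each age the populations were close. The log2 ratio of deposited values was 0.64, 0.25 and 0.13, with CPM lower in IPN at E16.5, and the fitted difference between populations 0.34 ± 0.23 (limma, adjusted p = 0.591).

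Epha6 was near the lower end of detection, from 0.14 to 1.19 CPM, with 5 of 6 libraries under 1 CPM. Its deposited values were 5, 7 and 4 in IPN and 2, 27 and 15 in non-IPN. The fitted difference of -0.83 ± 0.94 (limma, adjusted p = 0.777) rests on these few units.

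Among the ligands, Efna4, which binds several EphA receptors, had IPN above non-IPN on every day, with 23.20 against 12.87 CPM, then 29.87 against 8.23 and finally 10.26 against 5.80. The log2 ratio of deposited values was 0.99, 1.91 and 1.03. IPN at E16.5 was nevertheless below non-IPN at E13.5, so the populations overlapped across ages. The fitted difference was 1.31 ± 0.41 and did not pass (limma, adjusted p = 0.152; unadjusted p = 0.00945).

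In the E15.5 pair, for which no amplification is named, Efna3 reached 40.38 CPM (IPN) against 9.41 (non-IPN). In the amplified libraries it was at 0.26 CPM in IPN at E13.5 and listed at 0 in non-IPN, and at 0.48 and 0.16 at E16.5, which stands for deposited values of 7 and 2. IPN held the higher value at each age, with a log2 ratio of 2.15 in the E15.5 pair. The fitted difference of 1.96 ± 0.81 (limma, adjusted p = 0.312) depended on the pseudocount, and was 1.34 and 2.64 with pseudocounts of 4 and 0.25. On the RefSeq annotation Efna3 lies between Efna1 and Efna4, with no other protein-coding gene between them.

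Efna5, a repellent guidance ligand known from thalamocortical and retinal maps, had IPN levels of 20.36, 4.18 and 6.70 CPM by age, against 1.22, 8.03 and 10.25 CPM for non-IPN. IPN was far above non-IPN at E13.5 and below it at both later ages. The log2 ratio of deposited values was 4.13, -0.88 and -0.39, and the fitted difference 0.95 ± 0.87 (limma, adjusted p = 0.718). Without the E13.5 pair the fitted difference was -0.64 (adjusted p = 0.721).

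Efna2, the partner of Efna5 in retinal mapping, read 17.77 (IPN) against 14.59 CPM (non-IPN) on the first day, 43.73 against 44.06 on the second and 27.84 against 33.77 on the last. Both populations were highest at E15.5, and the log2 ratio of deposited values was 0.43, 0.04 and -0.06, with CPM lower in IPN at E15.5. The fitted difference was 0.14 ± 0.30 (limma, adjusted p = 0.872), and -0.00168 with column totals. Efna1, a ligand also known from endothelial cells, measured 2.91, 1.72 and 0.07 CPM in IPN and 1.72, 0.77 and 0.24 CPM in non-IPN, in age order. Both populations were lowest at E16.5, with a log2 ratio of 0.88, 1.19 and -1.0. Its fitted difference was 0.36 ± 0.87 (limma, adjusted p = 0.889). The 10 endothelial and pericyte markers summed to 0.8, 5.5 and 8.6 CPM in IPN and to 4.6, 10 and 1.3 CPM in non-IPN, with Cdh5 listed at 0 in 3 of the 4 amplified libraries.

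**Figure D2:**
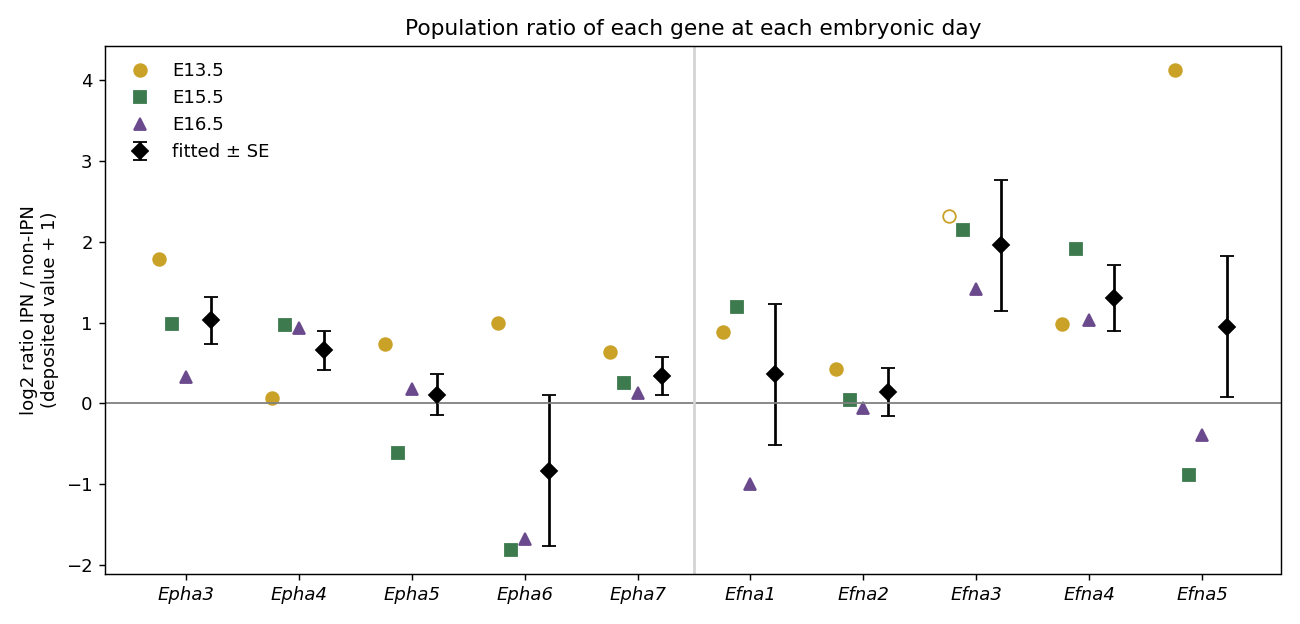
Log2 ratio IPN over non-IPN of the deposited value + 1 for each gene (vertical axis), by embryonic day (colored points), beside the fitted difference ± SE over the 3 ages (black). Epha3, Epha4, Epha7, Efna3 and Efna4 lie above 0 at each age on this scale (in CPM, Epha4 at E13.5 and Epha7 at E16.5 are lower in IPN), the Efna5 point moves from 4.13 at E13.5 to below 0, and the open point is Efna3 at E13.5, where non-IPN was listed at 0.

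Across the 10 genes, 0 were called different between populations (limma, adjusted p under 0.05) against 3.39% of 19561 genes tested (0.982% higher and 2.41% lower in IPN), and 4 had an unadjusted p under 0.05 (Epha3, Epha4, Efna3 and Efna4), against 13.6% of all genes. The median fitted log2 difference was 0.34 over the 5 receptors and 0.95 over the 5 ligands, beside -0.02 over all genes tested. The ligand median is the value of Efna5 (0.95 ± 0.87), which was -0.64 without the E13.5 pair. IPN exceeded non-IPN at all 3 ages in 5 of 10 genes on the deposited scale (14.2% of all genes) and in 3 of 10, Epha3, Efna3 and Efna4, in CPM (9.64% of all genes). The populations did not overlap over the 6 libraries in 0 of 10 genes, against 7.98% of all genes.

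Levels between genes were compared per kilobase of exon, with exon lengths from GENCODE M21 (build GRCm38, while the files use mm9), so they are approximate. Epha5 led with the range given above, and Epha4 followed at 17.02 to 34.17 CPM per kb without overlap with it. The ranges were 7.27 to 28.45 for Epha7, 3.19 to 26.02 for Epha3, 6.84 to 20.68 for Efna2 and 3.63 to 18.68 for Efna4. They overlapped with each other and with that of Epha4. Within each library, Epha4 was above Epha3 and Efna4. Epha7 was above Epha4 in non-IPN at E16.5 (28.45 against 17.02), and Efna2 was above it in non-IPN at E15.5 (20.68 against 18.04). The order among Epha7, Epha3, Efna2 and Efna4 changed between libraries. Efna3 ran from 0 to 17.09, Efna5 from 0.30 to 5.05, Efna1 from 0.04 to 1.59 and Epha6 from 0.04 to 0.30 CPM per kb.

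Between the amplified ages, Epha7 alone of the 10 genes passed the test. Each age had 1 IPN and 1 non-IPN library from the same cortices, and these served as its replicates. It rose by a fitted log2 difference of 1.56 ± 0.28 from E13.5 to E16.5 (limma, adjusted p = 0.0119), with a log2 change of 1.30 in IPN and 1.82 in non-IPN. That is 1 of 10 genes called, against 6.02% of all genes (3.76% higher and 2.26% lower at E16.5). The call ended when the E15.5 pair or any 1 of the 4 amplified libraries was left out (1.33 to 1.79, adjusted p = 0.0744 to 0.504), settings in which limma called 0 to 97 of all genes, so that loss is not particular to Epha7. It also ended without the trend and robust options (adjusted p = 0.206).

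E16.5 exceeded E13.5 in both populations in 4 of 10 members, Epha3, Epha7, Efna2 and Efna3 (27.4% of all genes on the deposited scale). For Efna3 this rests on few units, from 4 to 7 in IPN and from 0 to 2 in non-IPN. E16.5 was below E13.5 in both populations in 3 members, Epha5, Efna1 and Efna4 (24.5% of all genes). With Epha7 counted, 5 of 10 members had an unadjusted p under 0.05 for the age difference, against 21.6% of all genes. Efna1 had the largest fitted difference, -3.58 ± 1.07 (limma, adjusted p = 0.0797), from deposited values of 45 to 1 in IPN and 24 to 3 in non-IPN. Efna4 had nearly the same log2 change in both populations, -1.25 in IPN and -1.29 in non-IPN, with a fitted difference of -1.27 ± 0.50 (adjusted p = 0.174). Efna2 had 0.81 ± 0.36 (adjusted p = 0.230) and Epha3 1.02 ± 0.36 (adjusted p = 0.125). For Epha3 the change was 0.29 in IPN and 1.75 in non-IPN, and the fitted difference was 1.59 without IPN of E13.5, 1.55 without IPN of E16.5, 0.46 without non-IPN of E13.5 and 0.49 without non-IPN of E16.5.

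The remaining members, Efna5, Epha4 and Epha6, had changes of opposite sign in the populations between E13.5 and E16.5. Over all genes, 27.4% rose in both populations and 24.5% fell in both, so lacking a shared direction is not particular to these members. Efna5 had a log2 change of -1.67 in IPN and 2.85 in non-IPN. Epha4 had 0.08 (deposited values of 2434 and 2577, nearly level) and -0.78. Epha6, near the lower end of detection, had -0.26 (deposited values of 5 and 4) and 2.42. The fitted age differences were 0.59 ± 1.07 for Efna5, -0.35 ± 0.30 for Epha4 and 1.08 ± 1.15 for Epha6 (limma, adjusted p = 0.781, 0.550 and 0.648). Without the non-IPN library of E13.5, the values were -1.8, 0.09 and -0.3, and without the IPN library of E13.5 they were 2.98, -0.79 and 2.45. Each set lay near the change of the population that kept both libraries, so neither is a separate check. Epha5 had -0.84 in IPN and -0.28 in non-IPN, with a fitted difference of -0.56 ± 0.30 (adjusted p = 0.317).

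**Figure D3:**
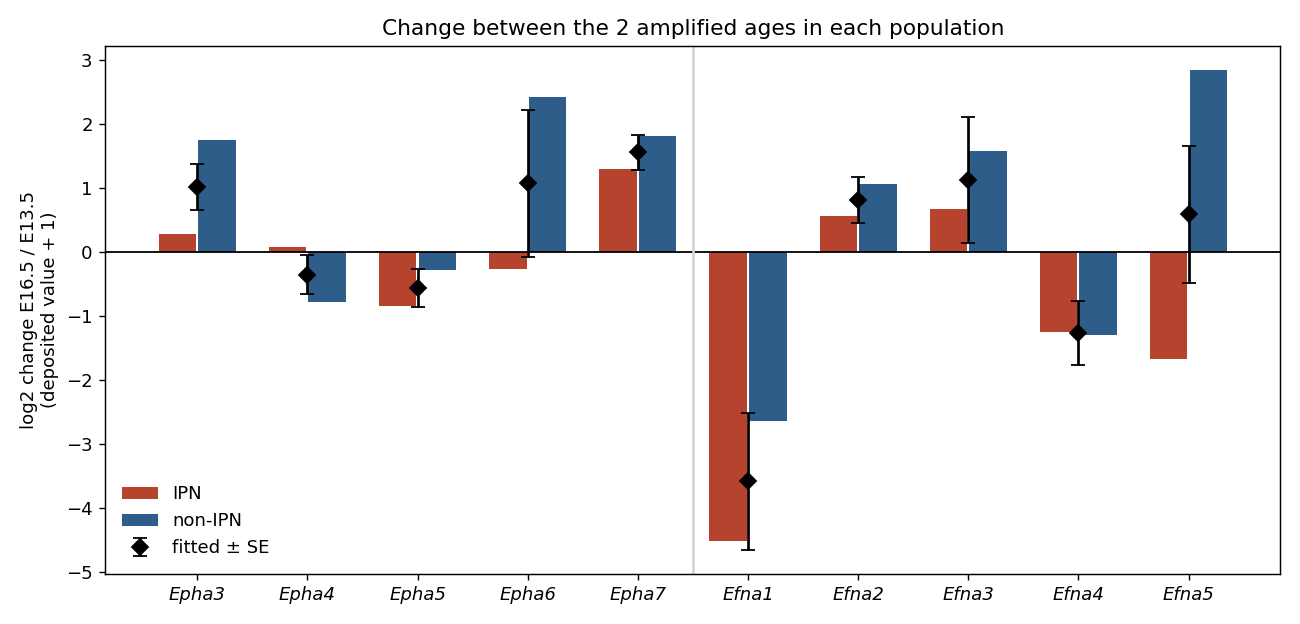
Log2 change from E13.5 to E16.5 of the deposited value + 1 (vertical axis) in IPN (red bars) and non-IPN (blue bars), 1 library per bar end, with the fitted change ± SE (black). Epha7 is above 0 in both populations (1.30 and 1.82), Efna1 and Efna4 are below 0 in both, and Efna5 goes to -1.67 in IPN and 2.85 in non-IPN.

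The population ratio was then tested for a steady shift with embryonic day, as a slope in log2 units per day. In this test 0 of 10 members were called, against 1.30% of all genes (0.624% with a rising and 0.68% with a falling ratio, limma), and 2 had an unadjusted p under 0.05, Epha3 and Efna5, against 16.7% of all genes. Efna5 had a slope of -1.65 ± 0.40 (limma, adjusted p = 0.0558) and Epha3 one of -0.47 ± 0.16 (adjusted p = 0.145). Both passed when values were scaled by column totals (adjusted p = 0.00118 and 0.0335) or by median-of-ratios size factors (0.0011 and 0.0453), settings that called 1445 and 1558 genes in place of 255. Efna5 also passed with a pseudocount of 0.25 (adjusted p = 0.0287). For both genes, non-IPN at E13.5 was the lowest library, the one with the blood and radial glia sums given above. With an age left out the slope is a value with no test, since no residual degree of freedom remains. Without the E13.5 pair it was 0.49 for Efna5, the opposite sign, and -0.66 for Epha3. Without the E15.5 or the E16.5 pair it was -1.51 or -2.51 for Efna5 and -0.49 or -0.4 for Epha3. The slopes of the other 8 genes ran from -0.97 ± 0.62 (Epha6) to 0.31 ± 0.16 (Epha4), with adjusted p from 0.339 to 0.920.

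Most genes around the EphA and ephrin-A members were not called between populations, as was so for all genes. Over all genes, 3.39% were called between populations, 6.02% between E13.5 and E16.5 and 1.30% in the population by day term. Of the 4 other EphA receptors, Epha1, Epha2 and Epha10 stayed between 0.03 and 1.07 CPM and Epha8 between 0.07 and 6.15 CPM, and 0 were called in any of the 3 comparisons (limma). Of 8 EphB receptors and ephrin-B ligands, Ephb1 was called higher in IPN (log2 difference 2.68 ± 0.43, limma adjusted p = 0.00679), from 30.89, 84.88 and 85.49 CPM in IPN and 3.79, 7.30 and 40.13 CPM in non-IPN. The call ended without the E13.5 pair (adjusted p = 0.0507) or the E15.5 pair (0.226). Without the E15.5 pair limma called 1 gene higher in IPN in place of 192, so that loss is not particular to Ephb1.

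The kinases, adaptors and phosphatases (16 genes) gave 1 call between populations. Nck1, an adaptor that links receptor tyrosine kinases to actin, was lower in IPN (-1.57 ± 0.36, limma adjusted p = 0.0423), at 19.32 CPM against 48.55, 5.65 against 23.31 and 8.14 against 27.73 at the 3 ages in order. Its call ended without any 1 of the pairs (adjusted p = 0.0741, 0.411 and 0.132), and with all 6 libraries under a pseudocount of 4 (0.0618) or median-of-ratios size factors (0.0529). Of 9 co-receptors and cleavage enzymes, Ntrk2, the BDNF receptor, was lower in IPN (-1.86 ± 0.26, adjusted p = 0.00296), at 19.84 CPM against 118.40, 73.94 against 208.58 and 39.46 against 150.04. That call ended without the E15.5 pair (adjusted p = 0.0965). In that setting limma called 53 genes lower in IPN in place of 472, so the loss there is not particular to Ntrk2 or Nck1. The sheddase Adam10 was not called (-0.20 ± 0.21, adjusted p = 0.766).

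Between E13.5 and E16.5 calls were also made among the pathway genes, beside 6.02% of all genes. Of the 16 kinases, adaptors and phosphatases, Src (1.80 ± 0.34), Ptpro (1.34 ± 0.33) and Pik3r1 (1.33 ± 0.33) rose and Grb10, an adaptor of growth factor receptors, fell (-2.99 ± 0.30), with limma adjusted p = 0.0146, 0.0438, 0.0441 and 0.00111.

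Ephb1 (2.31 ± 0.53) and Ephb2 (1.54 ± 0.39) rose among the EphB and ephrin-B genes (limma, adjusted p = 0.0318 and 0.0442). Of the co-receptors and cleavage enzymes 0 were called, against 6.02% of all genes. With a pseudocount of 4 the calls of Ephb1, Ephb2, Pik3r1 and Ptpro ended (limma, adjusted p = 0.0587, 0.0693, 0.0689 and 0.0735), and with median-of-ratios size factors those of Ephb2, Pik3r1 and Ptpro (0.0588, 0.0605 and 0.0514). Without the E15.5 pair each of these age calls except that of Grb10 ended. With any 1 of the 4 amplified libraries left out, limma called 0 of all genes, so the loss of these calls there is not particular to them.

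**Figure D4:**
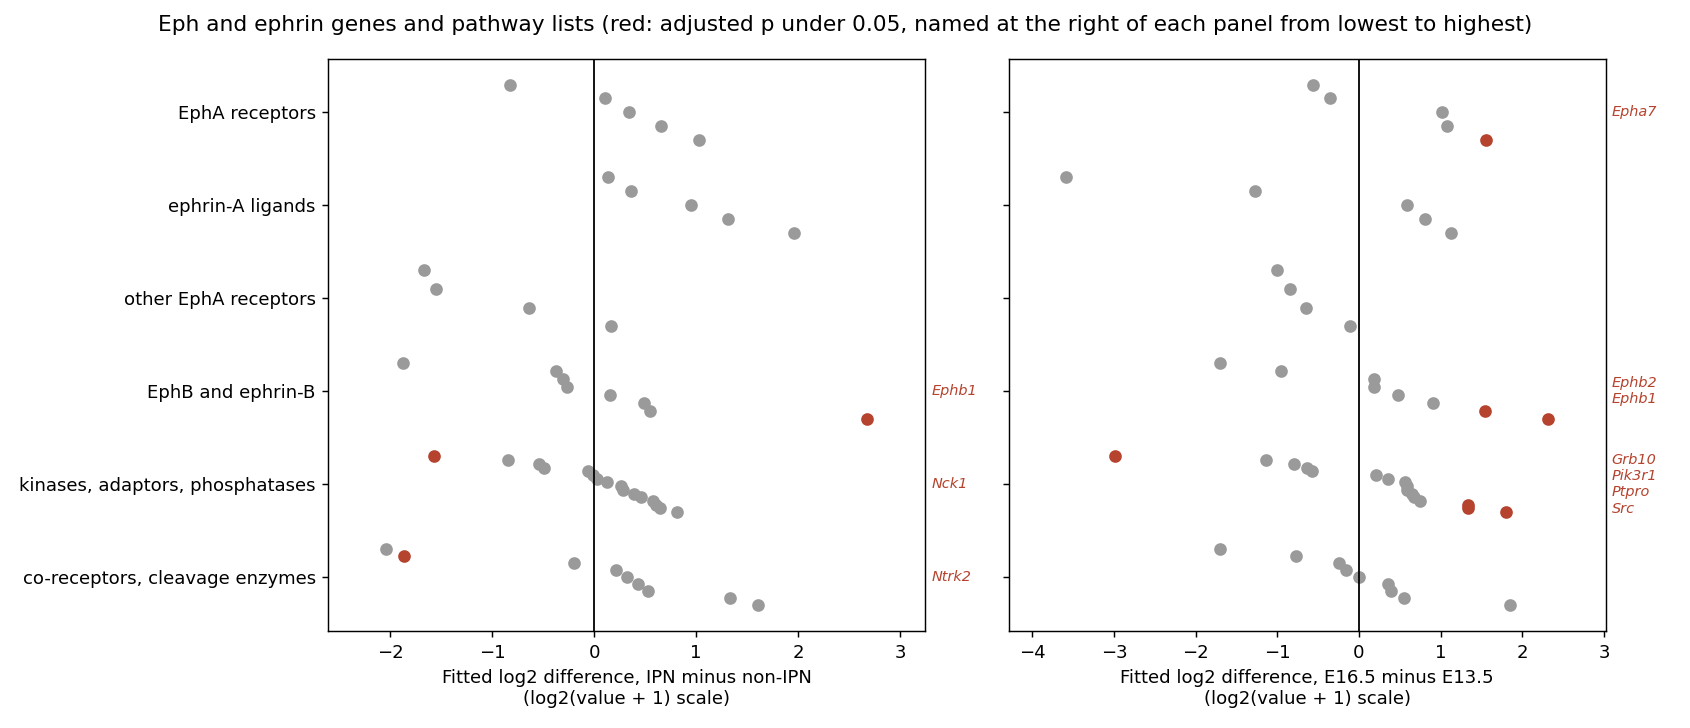
Fitted log2 differences (horizontal axes) of the receptors, ligands and 4 pathway lists between populations (left) and between E16.5 and E13.5 (right), 1 point per gene, with genes of adjusted p under 0.05 in red and named at the right edge. No receptor or ligand of the EphA and ephrin-A group is red on the left, and Epha7 is the red one among them on the right.

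The genes most like a member over the 6 libraries were taken by Pearson correlation of log2(CPM + 1) among genes with a mean of at least 10 CPM, for the member with the smallest adjusted p in each direction between populations. For Epha3 they were Jph4 (r = 0.998), D16H22S680E (0.991) and Mgst3 (0.988), and 74 of 9348 genes had r over 0.95. Epha6 was the only member with a fitted difference below 0 (limma, adjusted p = 0.777), and 5 of its 6 libraries were under 1 CPM. For Epha6 the genes were Brwd1 (0.988), Gspt2 (0.982) and Slitrk4 (0.977), and 7 of 9349 genes had r over 0.95. Its correlations rest on values near the lower end of detection. The 6 points share amplification, age and population, and these values are a description.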

How the data were processed

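RNA was sequenced from 6 libraries, 3 of IPN and 3 of non-IPN. The submitters' processing notes name TopHat 1.2.0, CASAVA 1.9, edgeR, SAMtools 0.1.18 and mouse build mm9. The sources used here do not give their roles, the read counter, the annotation, the strand setting or the scaling. The deposited values are whole numbers whose upper quartile was 1501 in both E15.5 libraries and 438 to 444 in the other 4 although totals differed, so they were treated as a scaled signal and not as counts. Files were joined by symbol, 3 symbols listed more than once were dropped, and 19561 genes above 0 in at least 1 library were tested.

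Differences were tested with limma 3.58.1 (R 4.3.3, trend and robust) on log2(value + 1), which understates changes of low genes, with Benjamini-Hochberg adjustment over all genes and a threshold of 0.05. Population and age (3 levels) were the terms, with 2 residual degrees of freedom and a median prior of 8.3. Per the labels' protocols, IPN and non-IPN were separated from the same double-positive cortices. For the population difference age was therefore the pairing, and the ages were the only replication. For the age difference the 2 populations of an age stood in as replicates. Its p-values therefore do not measure the spread between separate collections of cortices. A second model added population by day (1 residual degree of freedom). All 10 members were named, with up to 4 called genes per list and direction, the 2 reporters and the most alike genes. Members and lists were chosen with earlier results of these data known. One list of pathway genes is not reported here. Alternatives were pseudocounts, scaling, filters on low values, options of limma, the age term and left-out libraries.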

Additional observations from a re-analysis of the deposited data

Results flagged for a closer look

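Among the pathway genes, Anks1, an adaptor that binds EphA receptors, had a population ratio that shifted with embryonic day, with a slope of -0.93 ± 0.19 log2 units per day (limma, adjusted p = 0.0248). Its levels in age order were 25.79, 91.21 and 16.83 CPM for IPN and 7.22, 96.42 and 33.38 CPM for non-IPN. IPN was thus above non-IPN at the first age and below it at the last. The lowest level was that of non-IPN at E13.5, the library with 49254.3 CPM of red blood cell and 4318.1 CPM of radial glia markers. Of these markers, 7 of 9 and 2 of 9 were called in the same test with a slope above 0, against 0.624% of all genes. Both marker sums were highest in that same library, so these marker calls restate the sums and are no separate evidence on Anks1. The part of these cells was not tested. From the later 2 ages alone the slope was -0.74, a value with no test. Its call ended without the trend and robust options (adjusted p = 0.401).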

How the results depend on the processing

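Depth is unknown and each population has 1 library per age, so spread between animals could not be measured. For the population difference, 664 genes were called, against 358 with a mean of at least 10 CPM, 0 without the trend and robust options (1946 at an unadjusted p under 0.05) and 54 to 595 with 1 pair left out, where 0 to 1 members were called (Epha4 without the E13.5 pair). Without age as the replicate block, 0 genes were called (676 at an unadjusted p under 0.05). With column totals the median over all genes was -0.15 in place of -0.02, and Epha5 was at -0.03 and Efna2 at -0.00168; median-of-ratios size factors put Dcx at 0.01. With 1 pair left out, Epha5 ran from -0.21 to 0.46, Efna1 from -0.06 to 1.03, Efna2 from -0.01 to 0.24, Efna5 from -0.64 to 1.87 and Dcx from -0.44 to 0.31 (0.1 without the E16.5 pair). For the age difference, 1178 genes were called, against 769 with a pseudocount of 4, 0 without the trend and robust options (3414 at an unadjusted p under 0.05; 0 members) and 0 to 97 with a library or the E15.5 pair left out (0 members), where Epha4 ran from -0.79 to 0.09, Epha6 from -0.3 to 2.45 and Efna5 from -1.8 to 2.98 (-0.42 without non-IPN of E16.5). With 1 amplified library left out, the lone library of that age is assumed to vary like the others. For the population by day term, 255 genes and 0 members were called, against 483 and 1 with a pseudocount of 0.25, 1445 and 2 with column totals, 1558 and 2 with median-of-ratios size factors, 135 and 0 with a mean of at least 10 CPM, and 0 and 0 without the trend and robust options (2321 at an unadjusted p under 0.05). Its slope for Efna3 was 0.05 with a pseudocount of 4, and for Efna5 it ran from -2.51 to 0.49 with 1 pair left out, a setting added after seeing the data. Epha3, Epha4, Epha7, Efna3 and Efna4 kept a positive population difference in all alternatives run on them, and Epha6 a negative one. The age difference stayed positive for Epha3, Epha7, Efna2 and Efna3 and negative for Epha5, Efna1 and Efna4. For Efna3 that sign rests on deposited values of 4 to 7 in IPN and 0 to 2 in non-IPN. Beyond what a setting's own construction shows (fewer genes or libraries), the cause was not tested.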

Other observations

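Efna3 belonged to a small set of genes with low or no signal in all 4 amplified libraries. Of 10091 genes with at least 5 CPM in both E15.5 libraries, 33 (0.327%) were at or under 0.5 CPM in all 4 amplified libraries, and Efna3 was one of them, by limits chosen after its values were seen. The longest GENCODE transcript of these genes had a median GC content of 58.2% (28 of 33 with a value), beside 50.1% over the 10091 (90.6% with a value). That of Efna3 was 56.1%, above 81.0% of them. Of the other ligands, Efna2 was at 58.5% and Efna4 at 56.8%, and both were above 5 CPM in all 6 libraries. Age, cell number and amplification cannot be told apart here.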
